A study of Mus musculus with 14 samples.

Results

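The chemical synapses of the cortex are described here by 39 genes of their scaffolds and of their vesicle release machinery. They were picked by matching a list of symbols to the deposited count table, with no threshold on their values. The list was drawn up with earlier results of these data known. Shares of the 39 genes set beside those of all genes are therefore descriptions, not a test of an independent list. All 39 were found among 55359 entries with an Ensembl gene, and all 39 were among the 16918 genes tested. They comprise 13 postsynaptic scaffold genes, 5 adhesion genes that bridge the synaptic cleft, 3 genes of postsynaptic calcium signalling and 18 presynaptic release genes.

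RNA of the cerebral cortex was sequenced in 14 mouse samples: 5 taken 2 days after cerebral venous sinus thrombosis (CVST-2d), 5 taken 7 days after it (CVST-7d) and 4 after a sham procedure. In CVST a clot closes the venous sinuses that drain the brain. Each sample was taken from both hemispheres, and the labels give no strain, sex, age or time of collection of the sham samples. The samples are numbered within a group without a statement that each is a separate animal, so the p-values measure the spread between these samples.

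At an excitatory synapse, scaffold proteins under the postsynaptic membrane hold glutamate receptors in place. Adhesion proteins of the neuroligin and neurexin families align that membrane with the release site across the cleft. On the presynaptic side, large active zone proteins dock and prime vesicles, and SNARE proteins fuse them with the membrane when synaptotagmins bind calcium.

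Counts of genes, in M (mega), summed to 14.7 to 20.8 M per sample, with a mean of 17.9 ± 2.04 M in CVST-2d, 16.7 ± 1.45 M in CVST-7d and 18.5 ± 1.40 M in sham (SD, n = 5, 5 and 4). The 39 genes took 1.93% ± 0.104 of the counts in CVST-2d, 1.92% ± 0.235 in CVST-7d and 2.04% ± 0.0992 in sham. Levels of 1 gene across samples are given as CPM, counts per 1 M of the library scaled with TMM factors. Levels of different genes are compared as FPKM, which also divides by length. Calls rest on edgeR's quasi-likelihood test, with Benjamini-Hochberg adjustment over all 16918 genes and a threshold of 0.05 on the adjusted p. In bulk tissue, fewer cells of a type and less RNA per cell cannot be told apart.

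The release gene Snap25, a membrane SNARE of the presynaptic terminal, had the highest level of the 39 genes in every group, with a mean of 1183 FPKM in CVST-2d, 1113 in CVST-7d and 1134 in sham. Next in sham came the postsynaptic calmodulin-binding protein gene Nrgn at 865 FPKM, the vesicle membrane protein gene Syp at 582 FPKM and the kinase subunit gene Camk2a at 564 FPKM. Their sham SDs were 125, 37.2 and 56.1 FPKM (n = 4), so Syp and Camk2a did not differ beyond their spread. Vamp2, the vesicle SNARE, followed at 506 FPKM, and the calcium sensor gene Syt1 at 387 FPKM. Among the scaffold genes Dlg4, which codes for PSD-95, led with 242 ± 6.42 FPKM in sham and was the eighth of the 39. The lowest levels in sham were those of the scaffold genes Homer2 (8.51 FPKM) and Homer3 (5.49 FPKM) and of the synapsin gene Syn3 (4.03 FPKM).

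Dlg4 fell at both times after CVST, and it was the single member called in both comparisons with sham. Its level was 609, 569, 610, 577 and 633 CPM in the CVST-2d samples, 657, 619, 609, 560 and 546 CPM in the CVST-7d samples, and 714, 747, 731 and 694 CPM in the sham samples. All 10 CVST samples lay below all 4 sham samples. The log2 fold change was -0.27 ± 0.07 (SE) at 2 days, with an adjusted p of 0.0477 (edgeR, 95% interval -0.42 to -0.12); the level fell by 16.9% in CVST-2d relative to sham. At 7 days it was -0.27 ± 0.07 (SE; interval -0.42 to -0.12), with an adjusted p of 0.0431 (edgeR). Both comparisons use the same 4 sham samples.

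Shank3, a scaffold of the deeper layer of the postsynaptic density, fell at 7 days. It had 181, 174, 178, 191 and 177 CPM in the CVST-2d samples, 187, 177, 178, 177 and 160 CPM in the CVST-7d samples, and 202, 238, 209 and 197 CPM in the sham samples. Here too every CVST sample was below every sham sample, although the highest CVST-2d sample and the lowest sham sample were 191 and 197 CPM. Its log2 fold change was -0.27 ± 0.07 (SE) at 7 days, with an adjusted p of 0.0479 (edgeR), and -0.23 ± 0.07 (SE) at 2 days, with an adjusted p of 0.0830. On the FPKM scale its log2 change was smaller, -0.17 at 7 days and -0.12 at 2 days, and neither was called (limma, adjusted p = 0.101 and 0.246). Dlg4 and Shank3 were the 2 of 39 members, 5.13%, in which no CVST sample of either time overlapped sham, against 126 of 16918 genes, 0.745%.

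**Figure D1:**
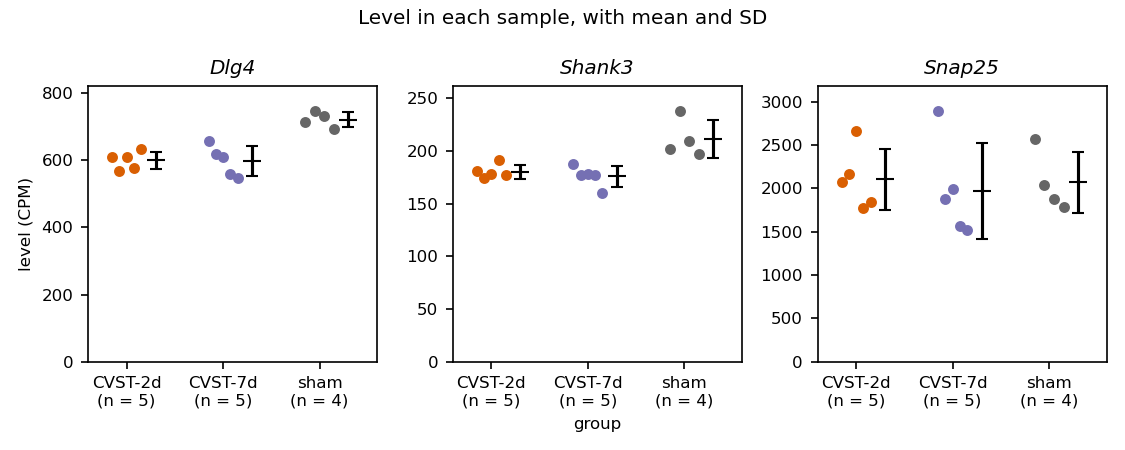
Level of Dlg4, Shank3 and Snap25 in each sample, in CPM with TMM factors (y axis, from 0), by group (x axis: CVST-2d, CVST-7d, sham). Points are samples and the bars beside them are the mean and SD. Dlg4 and Shank3 do not overlap between CVST and sham samples, while Snap25 overlaps across all 3 groups.

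These calls lay close to the threshold. The Dlg4 call at 2 days was lost when any 1 of the 4 sham samples or of the CVST-2d samples 1 to 4 was left out (edgeR, adjusted p up to 0.143, log2 fold change -0.29 to -0.24), and kept without CVST-2d sample 5 (0.0240). At 7 days the Dlg4 call was kept without CVST-7d samples 1 and 2 each and lost without any of the other 7 samples (adjusted p up to 0.128, log2 fold change -0.30 to -0.24). The Shank3 call was kept only without CVST-7d sample 1 (0.0483) and lost without any of the other 8 (adjusted p up to 0.145).

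Counted over the whole list, 1 of 39 members was called lower and 0 higher at 2 days, against 0.969% of all genes called lower and 2.98% called higher. DESeq2 and voom also called 0 members higher at both times. Of all 16918 genes, DESeq2 called 1073 higher at 2 days and 1042 at 7 days, and voom 1420 and 576. At an unadjusted p under 0.05, 7 members (17.9%) were lower and 0 higher, against 9.38% and 12.3% of all genes. Every CVST-2d sample lay below every sham sample for 4 members (10.3%), and for 3.06% of all genes. The log2 fold changes of the 39 genes had a median of -0.17, and 30 lay below 0. Over all genes tested the median was -0.01 and 51.9% lay below 0.

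At 7 days 2 of 39 members were called lower and 0 higher, against 0.833% and 3.61% of all genes. Unadjusted p-values under 0.05 were found for 11 lower members (28.2%) and 0 higher, against 7.91% and 11.7% of all genes. All CVST-7d samples were below all sham samples for 4 members (10.3%), and for 3.87% of all genes. The median log2 fold change was -0.16 with 35 of 39 genes below 0, against -0.01 and 52.3% for all genes tested. Without CVST-7d sample 5, 26 of 39 genes lay below 0.

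**Figure D2:**
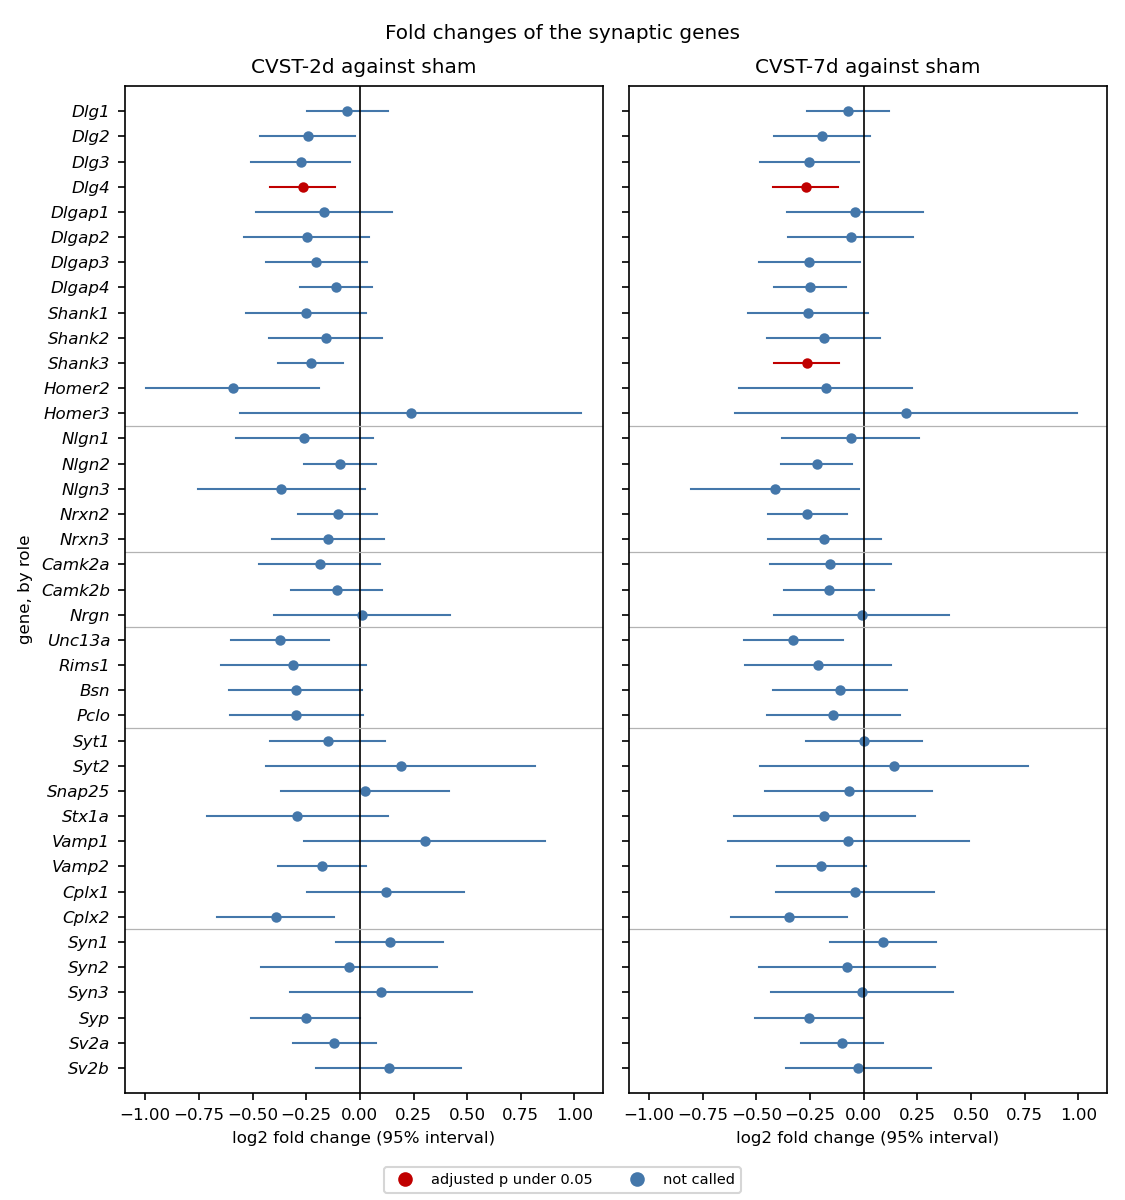
Log2 fold change of each of the 39 genes with its 95% interval (x axis), for CVST-2d against sham on the left and CVST-7d against sham on the right; genes run down the y axis by role. Dlg4 at both times and Shank3 at 7 days (red) had an adjusted p under 0.05, and most other points lie between -0.4 and 0 with intervals that include 0.

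The other 11 scaffold genes had no adjusted p under 0.05 in edgeR, where 0.969% and 0.833% of all genes were called lower. Of all 13 scaffold genes, 12 had a fold change below 0 at each time, and the median was -0.23 at 2 days and -0.19 at 7 days. At an unadjusted p under 0.05, 5 of the 13 (38.5%) were lower and 0 higher at each time, where 9.38% and 7.91% of all genes were lower. Dlg1, Dlg2 and Dlg3, which code for relatives of PSD-95, had log2 fold changes of -0.06, -0.24 and -0.28 at 2 days and -0.07, -0.19 and -0.25 at 7 days. The genes Dlgap1 to Dlgap4 code for the proteins that link PSD-95 to Shank. Dlgap1, Dlgap2, Dlgap3 and Dlgap4 stood at -0.17, -0.25, -0.20 and -0.11 at 2 days, and at -0.04, -0.06, -0.25 and -0.25 at 7 days. For Dlgap4 every CVST-7d sample, 184 to 236 CPM, was below every sham sample, 245 to 273 CPM, with an adjusted p of 0.0912 (edgeR). Shank1 and Shank2 had log2 fold changes of -0.25 and -0.16 at 2 days and of -0.26 and -0.19 at 7 days.

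Homer proteins couple Shank to metabotropic glutamate receptors. Homer2 had the lowest fold change of the list at 2 days, -0.59 ± 0.19 (SE), with an adjusted p of 0.0899 (edgeR). Its level was 33.3 to 54.1 CPM in CVST-2d and 48.7 to 77.5 CPM in sham, so the groups overlapped. At 7 days the Homer2 fold change was -0.18, and its level of 33.8 to 67.6 CPM overlapped both other groups. Homer3 was the single scaffold gene above 0, with 0.24 ± 0.37 (SE) at 2 days and 0.20 ± 0.37 (SE) at 7 days. It was also the most variable, with 5.85 to 19.8 CPM in CVST-7d and 4.66 to 14.4 CPM in sham.

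**Figure D3:**
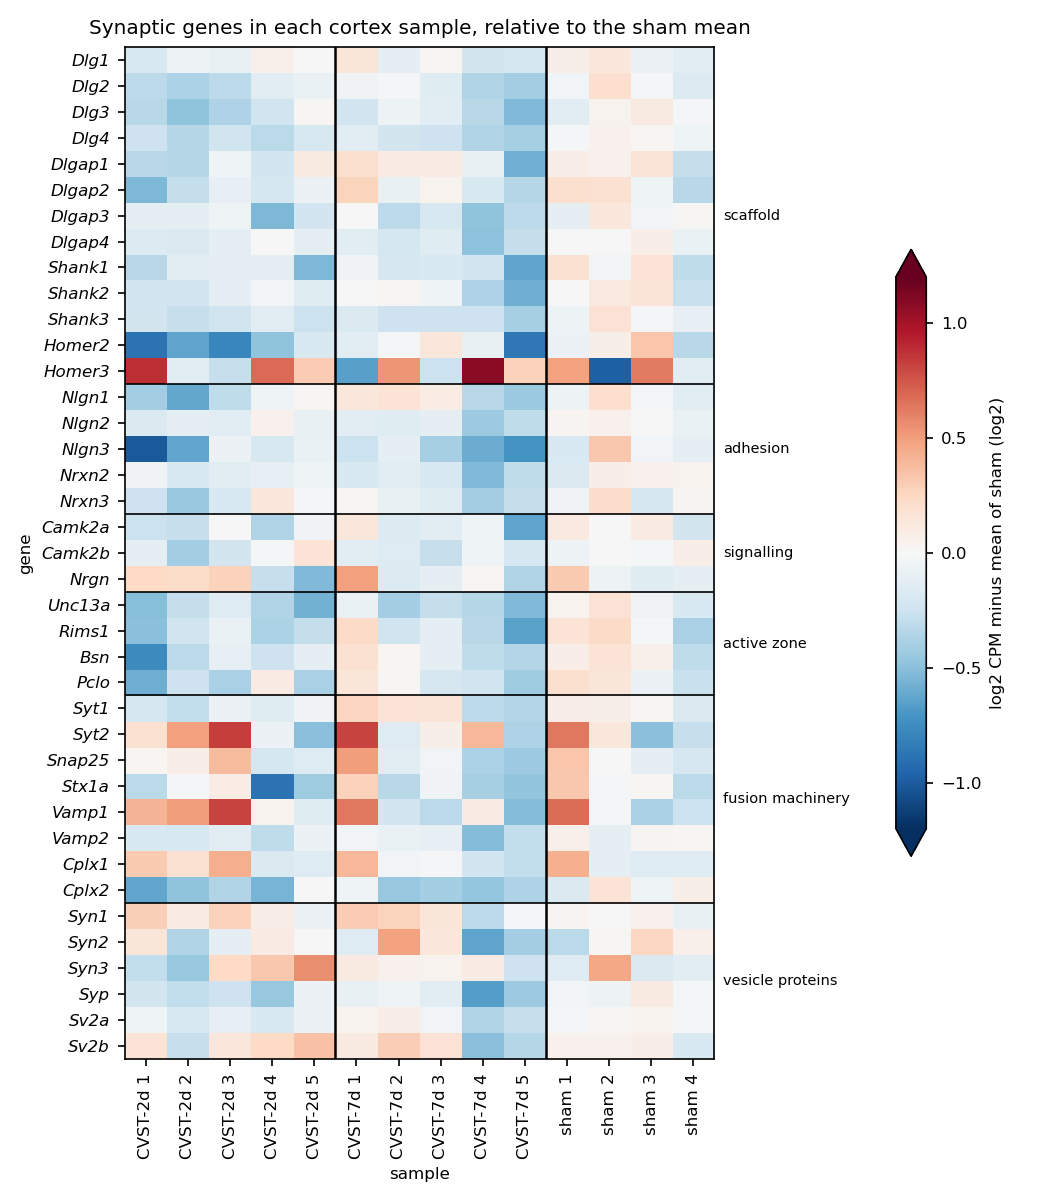
Log2 CPM of each gene minus its mean over the sham samples (colour, log2 scale, saturated beyond 1.2 in either direction), with genes by role down the y axis and the 14 samples along the x axis in the order CVST-2d, CVST-7d, sham. Scaffold, adhesion and active zone genes are mostly blue in CVST samples, while Snap25, Syt2, Vamp1 and Cplx1 range from red to blue within each group.

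All 5 adhesion genes had fold changes below 0 at both times, with a median of -0.15 at 2 days and -0.22 at 7 days. In edgeR 0 were called, where 0.969% and 0.833% of all genes were called lower at 2 and 7 days. At an unadjusted p under 0.05, 0 were lower at 2 days and 3 of 5 (60.0%) at 7 days, against 9.38% and 7.91% of all genes. DESeq2 called 0 and 1 (Nrxn2) lower, where it called 2.69% and 2.03% of all genes lower at 2 and 7 days. With voom 0 adhesion genes were called at both times, where 7.07% and 1.71% of all genes were called lower. Neuroligins are the postsynaptic partners: Nlgn1 acts mainly at excitatory synapses and Nlgn2 at inhibitory ones. Nlgn1, Nlgn2 and Nlgn3 had log2 fold changes of -0.26, -0.09 and -0.37 at 2 days and of -0.06, -0.22 and -0.41 at 7 days. For Nlgn2 the CVST-7d samples, 181 to 227 CPM, lay below the sham samples, 231 to 252 CPM, with an adjusted p of 0.132 (edgeR). The presynaptic neurexin genes Nrxn2 and Nrxn3 stood at -0.10 and -0.15 at 2 days and at -0.26 and -0.18 at 7 days. Nrxn2 at 7 days had an adjusted p of 0.103 (edgeR).

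Of the 3 signalling genes, 0 were called in edgeR, DESeq2 or voom. At 2 and 7 days edgeR called 0.969% and 0.833% of all genes lower, DESeq2 2.69% and 2.03%, and voom 7.07% and 1.71%. In edgeR 0 of the 3 had an unadjusted p under 0.05, against 9.38% and 7.91% of all genes that were lower. With 3 genes, a count of 0 does not set the class apart from all genes. Camk2a and Camk2b, subunits of the calcium/calmodulin-dependent kinase II that is abundant in dendritic spines, had log2 fold changes of -0.19 and -0.11 at 2 days and of -0.15 and -0.16 at 7 days. The Nrgn values were 0.01 and -0.01, with intervals of -0.40 to 0.42 and -0.42 to 0.40, so changes within these bounds are compatible with the data.

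On the presynaptic side, edgeR called 0 of 18 release genes at either time, where it called 0.969% and 0.833% of all genes lower. At an unadjusted p under 0.05, 2 (11.1%) were lower at 2 days and 3 (16.7%) at 7 days, against 9.38% and 7.91% of all genes. DESeq2 called 2 lower at 2 days (Cplx2 and Unc13a) and 0 at 7 days, where it called 2.69% and 2.03% of all genes lower. With voom 1 (Cplx2) and 0 of the 18 were called lower, where 7.07% and 1.71% of all genes were; 1 of 18 is below the first of these shares. Fold changes were below 0 for 11 of the 18 at 2 days and for 15 at 7 days, with medians of -0.13 and -0.09. Without CVST-7d sample 5 the second count was 10. The second median also moved with single samples, to -0.03 and -0.05 without CVST-7d samples 5 and 4, to -0.20 and -0.14 without CVST-7d samples 1 and 2, and to -0.15 without sham sample 4. Of the active zone genes 4 of 4 lay below 0 at each time, with medians of -0.30 and -0.18. Unc13a, which codes for the vesicle priming factor Munc13-1, had 264 to 351 CPM in CVST-2d, 270 to 370 CPM in CVST-7d and 345 to 442 CPM in sham. Only its highest sample of each CVST group reached the sham range. The log2 fold changes of Unc13a were -0.37 ± 0.11 (SE) and -0.33 ± 0.11 (SE), with adjusted p-values of 0.0652 at 2 days and 0.104 at 7 days (edgeR). Rims1, Bsn and Pclo code for the active zone organisers RIM1, Bassoon and Piccolo. They stood at -0.31, -0.30 and -0.30 at 2 days and at -0.21, -0.11 and -0.14 at 7 days.

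The 8 genes of the fusion machinery divided around 0, with 4 of 8 below it at 2 days and 6 of 8 at 7 days (medians -0.06 and -0.07). Snap25 itself had 2079, 2167, 2663, 1773 and 1841 CPM in the CVST-2d samples, 2893, 1880, 1999, 1571 and 1518 CPM in the CVST-7d samples, and 2576, 2038, 1883 and 1783 CPM in the sham samples. The groups overlapped across nearly their whole range. Its log2 fold change was 0.02 ± 0.18 (SE) at 2 days (edgeR, adjusted p = 0.955, interval -0.37 to 0.41) and -0.07 ± 0.18 (SE) at 7 days (adjusted p = 0.875, interval -0.46 to 0.32). Its SE was larger than the 0.07 of Dlg4, and the fold change of Dlg4 lies within the Snap25 interval.

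Stx1a, the syntaxin that pairs with SNAP-25, had log2 fold changes of -0.29 and -0.18 at 2 and 7 days, and Vamp2 had -0.18 and -0.20. The vesicle SNARE gene Vamp1 had 0.30 ± 0.26 (SE), the highest value of the list at 2 days, and -0.07 ± 0.26 (SE) at 7 days. The calcium sensor genes Syt1 and Syt2 stood at -0.15 and 0.19 at 2 days and at 0.00 and 0.14 at 7 days. Complexins clamp and then promote SNARE fusion. Cplx1 stood at 0.12 and -0.04 at 2 and 7 days, while Cplx2 stood at -0.39 ± 0.13 (SE) and -0.35 ± 0.13 (SE), with adjusted p-values of 0.0939 and 0.140 (edgeR). Cplx2 had 737 to 1128 CPM in CVST-2d, 823 to 1090 CPM in CVST-7d and 1005 to 1266 CPM in sham, and 4 of 5 samples of each CVST group were below all sham samples.

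Among the 6 vesicle proteins, 3 fold changes were below 0 at 2 days and 5 at 7 days, with medians of 0.02 and -0.05. The synapsins tether vesicles to the reserve pool. Syn1, Syn2 and Syn3 had log2 fold changes of 0.14, -0.05 and 0.10 at 2 days and of 0.09, -0.08 and -0.01 at 7 days. Syp, the gene of synaptophysin, stood at -0.25 ± 0.12 (SE) and -0.25 ± 0.12 (SE), with adjusted p-values of 0.233 and 0.251 (edgeR). All CVST-2d samples of Syp, 1014 to 1325 CPM, lay below the sham samples, 1329 to 1496 CPM, by a narrow margin. Sv2a and Sv2b code for vesicle glycoproteins. Sv2a had -0.12 and -0.10 at the 2 times, with all CVST-2d samples (389 to 426 CPM) below sham (435 to 455 CPM). Sv2b had 0.13 and -0.02.

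A mean over the genes of a class in each sample, as log2 CPM relative to the sham mean, shows how far the samples overlap. The 13 scaffold genes ranged from -0.28 to -0.11 in CVST-2d, from -0.41 to -0.07 in CVST-7d and from -0.17 to 0.11 in sham. The 18 release genes ranged from -0.17 to 0.08 in CVST-2d, from -0.38 to 0.20 in CVST-7d and from -0.16 to 0.13 in sham. Scaffold minus release lay between -0.30 and 0.04 in CVST-2d, between -0.27 and 0.12 in CVST-7d and between -0.09 and 0.16 in sham. These differences overlapped between groups, and a difference between scaffold and release genes was not tested. CVST-7d samples 4 and 5 had the lowest 2 release means, -0.30 and -0.38, and CVST-7d sample 1 the highest, 0.20.

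Between the 2 times after CVST, 0 members were called lower and 0 higher in CVST-7d against CVST-2d, beside 1.25% and 1.54% of all genes. At an unadjusted p under 0.05, 0 members were lower and 1 higher, against 10.6% and 10.3% of all genes. The 1 gene was Homer2, with 55.2 ± 12.7 CPM in CVST-7d and 41.4 ± 8.20 CPM in CVST-2d (SD, n = 5 each). Its log2 fold change was 0.42 ± 0.18 (SE), with an adjusted p of 0.200 (edgeR). DESeq2 called 0 members, and voom called Homer2 higher among 586 of 16918 genes that it called higher. The median log2 fold change was -0.01 for the scaffold genes and -0.01 for the release genes. The 4 active zone genes all lay above 0, at 0.04 to 0.19. Dlg4 and Shank3 stood at 0.00 and -0.04, with intervals of -0.15 to 0.14 and -0.18 to 0.11.

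The ratio of deposited counts to FPKM, pooled over the samples, gives an implied length per gene, 1.19 kb for Nrgn up to 9.98 kb for Bsn. It is not a fixed gene length, because the ratio differed between samples for some genes. Dlgap2 averaged 108 ± 17.7 CPM and 32.6 ± 16.1 FPKM in sham (SD, n = 4). In CVST-2d it averaged 91.0 ± 11.4 CPM and 21.0 ± 6.80 FPKM (SD, n = 5). Relative to the mean, its FPKM spread in sham was thus wider than its CPM spread. Over all genes tested the implied length ran from 0.00185 to 123 kb. Across the 39 genes, Spearman's rho of the implied length with the log2 fold change was -0.50 at 2 days, -0.19 at 7 days and 0.43 for CVST-7d against CVST-2d. Across all 16918 genes tested the same rho was -0.20, 0.04 and 0.25. These are descriptions across genes, which are not independent and share the same libraries. Members of longer implied length, such as Bsn and Pclo, thus tended to have the lower values at 2 days. Within classes the rho at 2 days was -0.41 for the 18 release genes and -0.12 for the 13 scaffold genes. The tendency was therefore weak among the scaffold genes.

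Promoters of 300 bases, 250 before to 50 after each start in the RefSeq table of build GRCm38.p6, were matched by symbol for 30 of the 39 genes (49 promoters). The files themselves were made on build mm39. Shown are 1 of the 3 Dlg4 starts, the one with motif matches, and those of Shank3 and Unc13a. Dlg4 and Shank3 are the called genes. Unc13a was chosen because its promoter matched both arms of the RE1 element given in the next sentence. Capitals mark matches, on either strand, to the GC box (GGGCGG), the core of the cyclic AMP response element (TGACG, which is also part of the full element TGACGTCA), and the arms of the neuron-restrictive RE1 element (TTCAGCACC on the left and GGACAGCGC on the right).
Dlg4 (chr11:70023732-70024031, + strand): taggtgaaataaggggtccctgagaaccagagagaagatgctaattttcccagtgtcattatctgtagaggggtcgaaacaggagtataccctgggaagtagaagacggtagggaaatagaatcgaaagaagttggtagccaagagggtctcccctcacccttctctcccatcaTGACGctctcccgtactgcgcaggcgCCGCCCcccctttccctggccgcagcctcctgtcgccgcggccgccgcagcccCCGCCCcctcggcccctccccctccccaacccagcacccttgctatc
Shank3 (chr15:89499358-89499657, + strand): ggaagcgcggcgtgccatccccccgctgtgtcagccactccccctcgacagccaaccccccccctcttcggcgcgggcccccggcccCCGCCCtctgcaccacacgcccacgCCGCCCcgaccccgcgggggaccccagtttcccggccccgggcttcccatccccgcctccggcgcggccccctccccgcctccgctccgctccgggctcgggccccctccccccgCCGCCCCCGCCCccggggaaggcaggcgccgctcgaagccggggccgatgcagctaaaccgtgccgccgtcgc
Unc13a (chr8:71671708-71672007, - strand): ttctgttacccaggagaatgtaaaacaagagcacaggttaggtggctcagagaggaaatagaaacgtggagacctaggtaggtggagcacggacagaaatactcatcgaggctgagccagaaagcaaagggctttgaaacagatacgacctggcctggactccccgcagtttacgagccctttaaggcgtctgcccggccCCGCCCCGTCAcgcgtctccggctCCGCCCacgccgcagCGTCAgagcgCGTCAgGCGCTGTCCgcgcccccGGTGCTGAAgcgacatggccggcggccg

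The Dlg4 promoter shown, the 1 of 3 with motif matches, held 2 GC boxes and 1 core of the cyclic AMP response element. That of Shank3 was 81.0% G and C, with 40 CpG dinucleotides and 4 GC boxes, a pair of them adjoining. That of Unc13a, chosen for holding both RE1 arms, had them 8 bases apart, with 3 cores of the cyclic AMP response element and 2 GC boxes. Among all 32851 promoters of the table, the GC box was found in 35.7%, and in 51.0% of those of the 39 genes. The core TGACG was found in 20.8% of all and 18.4% of the genes' promoters, and the full element TGACGTCA in 1.79% and 2.04% (Syn1). The left RE1 arm was found in 0.371% of all promoters and in 6.12% of the genes' promoters, those of Nlgn1, Syn1 and Unc13a. The right arm was found in 0.405% and in 2.04%, that of Unc13a. Also searched was the CCAAT box (CCAAT), found in 37.4% of all promoters and in 22.4% of the genes' promoters. For the TATA box (TATAAA) the shares were 13.6% and 10.2%, and for the E-box (CACGTG) 7.15% and 8.16%. Median G and C content was 57.7% over the genes' promoters and 52.7% over all. A match of letters is a description and not a site of binding.

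Some of the 39 genes varied together between samples of the same group, in pairs within and across the classes. Over the 741 pairs of the 39 genes, Pearson's r was computed across the 14 samples after each group's mean was taken out, with 100000 permutations within groups, 2-sided, and adjustment over the 741 pairs. Syt2, the calcium sensor of fast-spiking terminals, and Vamp1 had the highest r of the pairs, 0.97, and a Spearman's rho of 0.96. The permutation p was 1e-05 for each, the smallest they can give, and 0.00296 and 0.0037 after adjustment. Without CVST-2d sample 3 and CVST-7d sample 1, the 2 samples farthest from the median of Syt2, r was 0.95. Both genes varied widely within each group. Syt2 averaged 63.8 ± 22.2 CPM in CVST-2d, 61.7 ± 20.8 CPM in CVST-7d and 55.9 ± 20.2 CPM in sham (SD, n = 5, 5 and 4). Vamp1 had 115 to 223 CPM in CVST-2d, 88.6 to 197 CPM in CVST-7d and 97.2 to 202 CPM in sham.

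**Figure D4:**
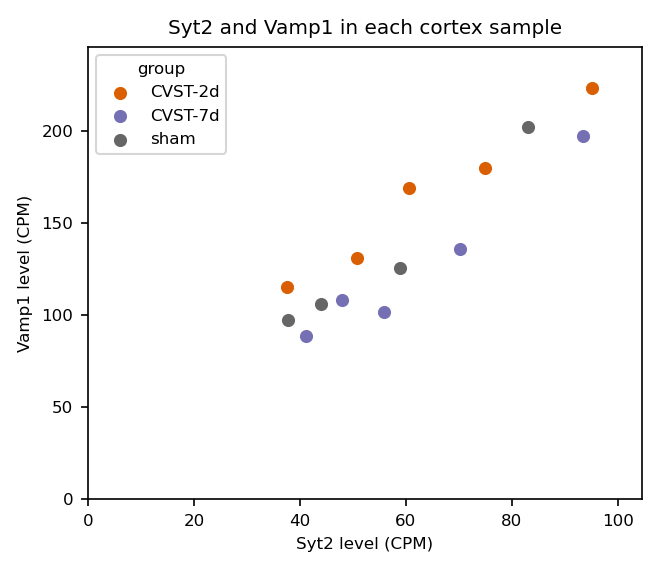
Vamp1 level (y axis, CPM) against Syt2 level (x axis, CPM) in each of the 14 samples, with colours for CVST-2d, CVST-7d and sham; both axes start at 0. The samples of each group run along one rising band, and the groups overlap along it.

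Snap25 varied with Cplx1 in the same way (r = 0.93, rho = 0.93, adjusted permutation p = 0.00834 and 0.0037), as did Syp with Vamp2 (r = 0.95, rho = 0.91, adjusted permutation p = 0.0196 and 0.0274). Without the 2 samples farthest from the median of the first gene, r was 0.91 and 0.90. The scaffold gene Dlg4 had its highest r with Syt1, 0.90 (rho = 0.90, adjusted permutation p = 0.0226 and 0.0352), and r was 0.83 without CVST-7d samples 1 and 5. Of the 741 pairs, 12 had an r above 0.9 and 62 an adjusted p for r under 0.05, of which 1 was negative. Those above 0.9 and not yet named were Dlg2 with Nlgn1 (0.95), Nrgn with Vamp1 (0.93) and Syt2 (0.91), and Dlgap2 with Rims1 (0.93) and Bsn (0.92). The others were Syp with Sv2a (0.93), Dlgap4 with Nlgn2 (0.92) and Dlgap1 with Camk2a (0.90). The median r was 0.43. Pairs share libraries and dissections, so they are not independent of each other.

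Wider lists of synaptic genes outside the 39 were read from the same fit. Of 36 other postsynaptic genes, 0 were called at 2 days and 1 lower at 7 days (2.78%), against 0.969% and 0.833% of all genes called lower. At an unadjusted p under 0.05, 7 (19.4%) were lower and 0 higher at 2 days, against 9.38% and 12.3% of all genes. At 7 days 12 (33.3%) were lower and 0 higher, against 7.91% and 11.7%. Fold changes lay below 0 for 32 and 33 of the 36, with medians of -0.18 and -0.18. The called gene was the activity-regulated scaffold Arc, with 55.3 ± 14.4 CPM in CVST-7d and 170 ± 47.4 CPM in sham (SD, n = 5 and 4). Its log2 fold change was -1.62 ± 0.32 (SE), with an adjusted p of 0.0141 (edgeR). Arc was also called lower in CVST-7d against CVST-2d, where it had 155 ± 66.1 CPM in CVST-2d (SD, n = 5). That log2 fold change was -1.48 ± 0.30 (SE), with an adjusted p of 0.0194 (edgeR). It was 1 of the 36 (2.78%), against 1.25% of all genes. Of 43 other presynaptic genes, 1 was called lower at 2 days (2.33%) and 0 at 7 days in edgeR, against 0.969% and 0.833% of all genes. At an unadjusted p under 0.05, 8 (18.6%) were lower and 2 (4.65%) higher at 2 days, against 9.38% and 12.3% of all genes. At 7 days 3 (6.98%) were lower and 0 higher, against 7.91% and 11.7%. Fold changes lay below 0 for 28 and 36 of the 43, with medians of -0.09 and -0.13. The called presynaptic gene was Syt7, a calcium sensor with slow kinetics, at 231 ± 34.8 CPM in CVST-2d and 316 ± 41.3 CPM in sham (SD, n = 5 and 4). Its log2 fold change was -0.45 ± 0.12 (SE), with an adjusted p of 0.0498 (edgeR).

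Markers of neurons and of other cells were measured in the same samples. Of 18 neuron markers 0 were called, 12 lay below 0 at 2 days and 18 at 7 days, and the medians were -0.08 and -0.17. At an unadjusted p under 0.05, 3 (16.7%) were lower at 2 days and 1 (5.56%) at 7 days, against 9.38% and 7.91% of all genes. The summed level of the neuron markers was 9026 to 10230 CPM in CVST-2d, 7508 to 10520 CPM in CVST-7d and 9833 to 10766 CPM in sham. Of 11 markers of excitatory cortical neurons 0 were called, 6 lay below 0 at 2 days and 4 at 7 days, and the medians were -0.04 and 0.04. Their sums were 1640 to 2140 CPM in CVST-2d, 1487 to 2128 CPM in CVST-7d and 1506 to 1988 CPM in sham. Of 8 interneuron markers 0 were called, 5 lay below 0 at 2 days and 7 at 7 days, and the medians were -0.12 and -0.19. Interneuron sums were 971 to 1118 CPM in CVST-2d, 751 to 1092 CPM in CVST-7d and 934 to 1163 CPM in sham. Of 12 microglia and macrophage markers, 2 were called higher at 2 days and 10 at 7 days, with summed levels of 387 to 990 CPM in CVST-2d, 455 to 3340 CPM in CVST-7d and 305 to 351 CPM in sham. Of 8 astrocyte markers, 2 were called higher at each time. At 2 days 5 of the 8 lay below 0 (median -0.19), 3 of them at an unadjusted p under 0.05, and at 7 days 0 lay below 0 (median 0.36). Their sums were 4037 to 4739 CPM in CVST-2d, 4332 to 7967 CPM in CVST-7d and 3390 to 4210 CPM in sham. Of 8 oligodendrocyte markers 0 were called, 6 lay below 0 at 2 days and 1 at 7 days, and the medians were -0.17 and 0.16. Their sums were 2957 to 4733 CPM in CVST-2d, 3725 to 8219 CPM in CVST-7d and 3090 to 7792 CPM in sham, with the highest values in CVST-7d sample 4 and sham sample 1. Of the CVST-7d samples with the lowest release means, sample 4 had the lowest neuron sum and the highest astrocyte sum, and sample 5 the highest microglia and macrophage sum. CVST-7d sample 1, with the highest release mean, had the second highest astrocyte sum, 5371 CPM, and the third highest microglia and macrophage sum, 1376 CPM. In CVST-7d sample 5 the 4 fibroblast markers also summed to 1987 CPM, against 102 to 212 CPM in the other CVST-7d samples and 43.9 to 85.6 CPM in sham. Markers of the striatum, which lies under the cortex, summed to 212 to 1102 CPM in CVST-2d, 210 to 1213 CPM in CVST-7d and 206 to 1492 CPM in sham. Of these 8 markers 0 were called and 0 had an unadjusted p under 0.05, but 8 of 8 lay below 0 at each time, with medians of -0.95 and -0.99. No marker of these lists was at 0 in all 14 samples. The part of cell composition or dissection in the synaptic results was not tested.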

How the data were processed

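The members and the gene lists were chosen with earlier results of these data known. Per the labels' protocols, Trizol was used to extract total RNA, and a NEBNext Ultra kit to make libraries. Per the submitters' processing notes, fastp, HISAT2 and DESeq2 1.16.1 were used with build mm39. The sources used here do not give the annotation, the counting tool or its strand setting. The authors deposited whole-number counts and FPKM values per gene for the 14 samples. Of the 39 entries, 32 are assembled loci that may hold more than the annotated gene. The 535 entries without an Ensembl gene (0.203% to 0.278% of counts) were left out.

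All 14 samples were fitted together as 3 group means in edgeR 4.0.16 (R 4.3.3), with TMM factors of 0.962 to 1.04, filterByExpr, and 2-sided quasi-likelihood tests adjusted by Benjamini-Hochberg. The code was tested on simulated data. The biological coefficient of variation was 0.218, and chi-square per degree of freedom between replicates was at least 8.27, so no replicates were merged. Log2 CPM used a prior count of 2. Alternatives were DESeq2 1.42.0, limma 3.58.1 (voom, and log2(FPKM + 1)), other scalings and filters, a replicate block, and each sample left out. Genes named with full values were those called and the highest FPKM of the scaffold and release classes; Unc13a, Homer2, Cplx2 and the gene pairs were singled out after their values were seen. Promoter sequences are from RefSeq, and pairs were computed with numpy 2.4.6.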

Additional observations from a re-analysis of the deposited data

Results flagged for a closer look

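In 7 of 117 combinations of a gene and a group, 1 sample stood apart from the rest of its group by Dixon's gap test, which chance does in about 1 in 20. Cplx2 was highest in CVST-7d sample 1, at 1090 CPM against 823 to 873 CPM in the other 4. Syn3 was lowest in CVST-7d sample 5, at 12.4 CPM against 15.3 to 16.0 CPM. Sham sample 1 accounted for 3 cases: Cplx1 at 677 CPM against 451 to 463 CPM in the other sham samples, Nrgn at 1312 CPM against 953 to 1012 CPM, and Nrxn2 at 317 CPM against 367 to 377 CPM. Syn3 was highest in sham sample 2, at 20.5 CPM against 13.2 to 13.5 CPM. Sv2b was lowest in sham sample 4, at 509 CPM against 596 to 607 CPM.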

How the results depend on the processing

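Calls of members depended on the tool, the scaling and single samples. No fold change of Dlg4 or Shank3 against sham changed sign under any alternative run, and the medians of the scaffold and release genes stayed below 0. Leaving out 1 sample each gave medians of -0.26 to -0.16 and -0.15 to -0.11 at 2 days, and -0.26 to -0.14 and -0.20 to -0.03 at 7 days. With log2(FPKM + 1) they were -0.12 and -0.08 at 2 days and -0.17 and -0.05 at 7 days. Upper-quartile scaling gave -0.19 and -0.09 at 2 days and -0.16 and -0.05 at 7 days, and voom gave -0.15 and -0.05 at 7 days. The number of genes called lower at 2 days, 1 in the report, was 0 with DESeq2 size factors, upper-quartile scaling, no filter on low counts, only the groups compared, the replicate block, or log2(FPKM + 1). It was 5 with DESeq2 (Cplx2, Dlg4, Homer2, Shank3, Unc13a) and 6 with voom (Cplx2, Dlg2, Dlg3, Dlg4, Homer2, Shank3), where 2.69% and 7.07% of all genes were called lower. Leaving out 1 sample each gave 0 to 4, the 4 without CVST-2d sample 5 (Cplx2, Dlg3, Dlg4, Homer2), where 4.59% of all genes were called lower.

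At 7 days the number called lower, 2 in the report, was 0 with upper-quartile scaling, no filter, only the groups compared, or the replicate block, 1 (Dlg4) with DESeq2 size factors or log2(FPKM + 1), and 4 with DESeq2 (Dlg4, Dlgap4, Nrxn2, Shank3), where 2.03% of all genes were called lower. Leaving out 1 sample each gave 0 to 2, the 2 without CVST-7d sample 1, where 0.593% were. Leaving out CVST-2d sample 5 and CVST-7d sample 2 together, chosen after seeing the data, gave 4 at 2 days and 1 at 7 days, where 4.61% and 1.09% of all genes were called lower. In CVST-7d against CVST-2d, voom called 1 higher (Homer2). The cause was not tested. Adjusted p of Dlg4 was 0.106 at 2 days and 0.141 at 7 days with the replicate block (edgeR). The block raised the SE of Dlg4 at 2 days from 0.07 to 0.08 and lowered that of Snap25 from 0.18 to 0.14. Of 13 same-numbered pairs, 2 had deviations correlated above 0.1 (-0.44 to 0.28). The labels state no pairing, and these correlations, from groups of 4 or 5 samples, cannot decide whether there was one. The number of samples limits the precision.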
